A study of Rattus norvegicus with 6 samples.

Results

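The comparison described here set kidney inner medulla taken 3 h after a dDAVP infusion had ended against inner medulla taken during the infusion, across all genes with a symbol of their own. It rests on 4 of the 6 arrays of the series, the 2 titled dDAVP withdrawal and the 2 titled dDAVP stimulation. The 2 vehicle arrays entered the shared estimate of spread and serve as a reference level. All rats were male Sprague-Dawley animals of 200 to 250 g, on a fixed ration with free access to water. An osmotic minipump under the skin of the neck delivered either saline at 1 µl/h (vehicle group) or dDAVP at 40 ng/h (dDAVP group) for 5 d. The withdrawal group received the same dDAVP infusion, after which the pump was taken out under light enflurane anaesthesia. The rats woke and went back to their cages, and tissue was collected 3 h later. The other groups had no such surgery by the labels, so loss of dDAVP cannot be told apart from pump removal and anaesthesia. No source used here gives the time of day of collection. Whether both arrays of a group came from separate rats is not stated either, and the p-values measure only the spread between these arrays.

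dDAVP (desmopressin) is an agonist of the vasopressin V2 receptor. In principal cells of the collecting duct this receptor raises cAMP, and protein kinase A then drives the water channel aquaporin-2 to the apical membrane and raises transcription of its gene. The inner medulla also holds thin limbs of the loop of Henle, vasa recta, interstitial cells and the papillary surface epithelium, and its cells live in a salty and urea-rich milieu. Each array measured the RNA of all of these cells at once, so fewer cells of a type and less RNA per cell cannot be told apart.

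The values are log2 intensities of 14168 genes, and a difference of 1 is a doubling. Median intensity was 156.1 and 165.1 in the dDAVP arrays, 181.8 and 181.1 in the withdrawal arrays, and 182.1 and 174.6 in the vehicle arrays. Gene by gene, the median difference of the 14168 genes was 0.14 log2, higher after withdrawal. By class of mean level this shift ran from 0.23 in the second and the third of 10 classes to 0.00 in the ninth. Differences are those of the deposited values unless cyclic loess normalization is named, which set the median gene at 0.003. Vehicle replicate 1 and dDAVP replicate 2 stood apart from the other 4 arrays. The standard deviation of the gene-by-gene log2 difference between these 2 arrays was 0.194, against 0.303 between the 2 dDAVP arrays and 0.223 between the 2 withdrawal arrays. Mest, an imprinted gene, was at 5.47 and 5.66 in these 2 arrays and between 9.97 and 11.10 in the other 4. Values without dDAVP replicate 2 are given for many of the results that rest on it, though not for every gene.

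No gene passed a Benjamini-Hochberg adjusted p under 0.05 in the limma test of withdrawal against dDAVP, where the smallest adjusted p was 0.260 (0.725 after loess). At an unadjusted p under 0.05, 2454 genes were higher after withdrawal (17.3% of those tested) and 232 were lower (1.64%), where 708.4 in all would be the count with no difference in any gene. After loess the counts were 452 higher (3.19%) and 470 lower (3.32%), with array medians subtracted 366 and 900, and after quantile normalization 417 and 473. Differences of at least 1.5-fold with an unadjusted p under 0.05, used here as a description, numbered 109 higher (0.769%) and 14 lower (0.0988%). After loess they were 40 higher (0.282%) and 24 lower (0.169%), with array medians subtracted 40 and 77, and after quantile normalization 37 and 21. Described both as deposited and after loess were 40 higher and 12 lower genes. Both withdrawal arrays lay above both dDAVP arrays in 7022 genes (49.6%) and below both in 1142 (8.06%), and after loess in 2875 (20.3%) and 2703 (19.1%). The difference was above 0 in 74.9% of genes as deposited and in 50.9% after loess. Whatever the p, 212 genes were at least 1.5-fold higher (1.5%) and 38 lower (0.268%), and after loess 141 (0.995%) and 66 (0.466%).

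Single arrays moved these counts. The 2686 genes at an unadjusted p under 0.05 numbered 773 when withdrawal replicate 2 was left out, 1571 without withdrawal replicate 1 and 1624 without replicate 1 of dDAVP. The 123 genes at least 1.5-fold apart numbered 506 when dDAVP replicate 1 was left out, 216 without replicate 2 of dDAVP and 394 without replicate 1 of withdrawal. In these fits the remaining array of a group was assumed to vary like the other groups. Of the 109 higher genes, 57 also had both withdrawal arrays above both vehicle arrays, and in the other 52 the withdrawal and vehicle arrays overlapped. Of the 14 lower genes, 8 had both withdrawal arrays below both vehicle arrays. Over all 14168 genes both withdrawal arrays were above both vehicle arrays in 2493 (17.6%) and below both in 1852.

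**Figure D1:**
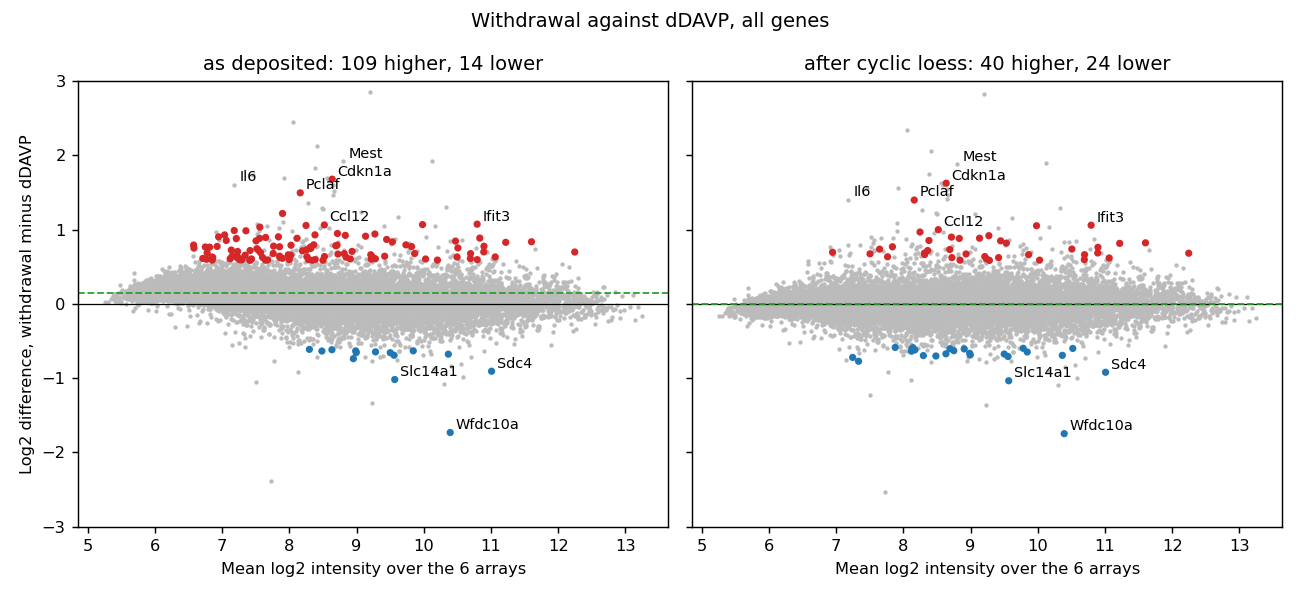
Log2 difference of withdrawal against dDAVP (vertical axis) by mean log2 intensity over the 6 arrays (horizontal axis) for 14168 genes, as deposited on the left and after cyclic loess on the right. Red and blue points are genes at least 1.5-fold higher or lower with an unadjusted p under 0.05 (109 and 14 as deposited, 40 and 24 after loess), grey points are all other genes, and the dashed line is the median gene, at 0.14 on the left, where dim genes lie mostly above 0.

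The vasopressin target tissue itself was present in every array. Aqp2, the water channel moved by vasopressin, was among the brightest genes, at 13.40 and 13.30 in the dDAVP arrays, 13.23 and 13.14 in the withdrawal arrays and 13.16 and 13.23 in the vehicle arrays. The withdrawal arrays lay below the dDAVP arrays and beside the vehicle arrays, and the difference of -0.16 ± 0.10 (SE, n = 2 arrays a group) did not pass. Avpr2, the V2 receptor, was at 11.63 and 11.71 under dDAVP and at 11.45 and 11.04 after withdrawal, a difference of -0.43 ± 0.16 (limma, unadjusted p = 0.0381, adjusted p = 0.260). Its vehicle arrays, at 11.59 and 11.32, overlapped the withdrawal arrays, and without withdrawal replicate 2 the difference was -0.23. The 13 measured markers of principal cells summed to intensities of 36455.2 to 38988.2 under dDAVP and 36358.6 to 39926.5 after withdrawal, ranges that overlap.

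Of the 12 measured genes of water and urea transport with their receptors 8 were above 0, with a median of 0.15 (-0.02 after loess), and the urea transporters lay on both sides of 0. Slc14a1 encodes UT-B, the urea transporter of descending vasa recta and red cells. It was at 10.06 and 9.95 under dDAVP, 9.34 and 8.64 after withdrawal, and 10.02 and 9.40 in vehicle. Both withdrawal arrays were the lowest of the 6, and the difference was -1.02 ± 0.28, a 2.02-fold lower level (limma, unadjusted p = 0.0104, adjusted p = 0.260). It was -1.03 after loess and -0.67 without withdrawal replicate 2. Slc14a2, which encodes the UT-A urea transporters of the collecting duct and thin limb, was at 12.47 and 11.86 under dDAVP and at 12.52 and 12.30 after withdrawal, a difference of 0.25 ± 0.30 that was -0.06 without dDAVP replicate 2. Aqp4, a basolateral water channel of principal cells, differed by 0.15 ± 0.21.

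Markers of endothelium, of which Slc14a1 is one, had a median below 0 beside it. Of 14 measured endothelial markers 5 were above 0, with a median difference of -0.23 (-0.25 after loess), against 0.14 for all genes. The receptor tyrosine kinase Tek was at 10.63 and 11.09 under dDAVP and at 10.38 and 10.25 after withdrawal (-0.55 ± 0.19), and the junction protein Pecam1 was at 10.15 and 10.23 against 10.07 and 9.70 (-0.31 ± 0.14). Tek and Pecam1 were picked with their values in view. Plvap, the brightest of the endothelial markers and a protein of fenestrated capillaries, was at 12.06 and 12.05 under dDAVP and at 11.96 and 11.81 after withdrawal. The summed intensity of the list was 13608.0 to 16482.9 under dDAVP, 11298.2 to 13044.7 after withdrawal and 13447.1 to 16379.6 in vehicle. The dDAVP value of 16482.9 was that of replicate 2, and without this array the median difference of the list was 0.02. The 8 measured red cell markers, another source of Slc14a1, summed to 7112.6 to 7871.8 under dDAVP and 6101.5 to 6844.5 after withdrawal, with a median difference of 0.02 (-0.17 after loess) and the beta globin Hbb-b1 at 11.58 and 12.02 against 11.45 and 11.51. The part of these cells in the Slc14a1 difference was not tested.

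Among other transport genes the differences were small. Of 26 measured genes of sodium, potassium and chloride transport 15 were above 0, with a median of 0.03 and 0 genes in either direction at 1.5-fold. Bsnd, the barttin subunit of renal chloride channels, had the smallest p of the list, at 11.09 and 10.97 under dDAVP and 10.70 and 10.62 after withdrawal (-0.36 ± 0.10). Both of its withdrawal arrays also lay below the vehicle arrays, at 10.95 and 11.00. The epithelial sodium channel subunits Scnn1b and Scnn1g differed by 0.25 ± 0.17 and 0.31 ± 0.14, and Sgk1, an aldosterone-regulated kinase, by -0.07 ± 0.20. The 42 genes of aquaporin-2 vesicle trafficking had a median of 0.03 with 25 above 0, and Rab11fip2, an adaptor of recycling endosomes, differed by 0.40 ± 0.15.

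Genes of cAMP and protein kinase A signalling had a median of 0.07 (-0.05 after loess), below the 0.14 of all genes. Of 47 measured members 27 were above 0, against 74.9% of all genes, and 0 were at 1.5-fold with an unadjusted p under 0.05. After loess 6 of the 47 were lower at an unadjusted p under 0.05 and 0 were higher, where 3.32% and 3.19% of all genes were, and 13 had both withdrawal arrays below both dDAVP arrays, against 19.1%. Prkacb, a catalytic subunit of protein kinase A, was at 9.58 and 9.44 under dDAVP, 9.17 and 8.89 after withdrawal and 9.32 and 9.30 in vehicle, a difference of -0.48 ± 0.12. Pde10a, a phosphodiesterase, was at 7.50 and 7.30 under dDAVP and 7.87 and 7.91 after withdrawal, a difference of 0.49 ± 0.12 (0.33 after loess). Both were picked with their values in view, and in both the withdrawal arrays lay outside the range of the other 4. Pkib, an inhibitor of protein kinase A, was at 8.39 and 7.89 under dDAVP, 8.28 and 9.52 after withdrawal, so the groups overlapped. Crem, a cAMP-responsive transcription factor, was at 11.04 and 9.90 under dDAVP and 10.31 and 10.90 after withdrawal, and its difference of 0.13 ± 0.41 was -0.44 without dDAVP replicate 2. Pde4d, a cAMP phosphodiesterase, differed by -0.18 ± 0.13 and Nedd4l, a ubiquitin ligase of the sodium channel, by -0.01 ± 0.15.

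Genes of the osmotic response, which protect medullary cells in a salty milieu, showed no common direction. Of 16 measured members 9 were above 0, with a median of 0.03. Slc6a6, the taurine transporter, was at 8.12 and 8.40 under dDAVP, 7.97 and 7.69 after withdrawal and 8.31 and 8.16 in vehicle (-0.43 ± 0.15). Slc38a2, an amino acid transporter picked with its values in view, was at 11.85 and 11.43 against 11.05 and 11.29 (-0.47 ± 0.17). In both the withdrawal arrays lay below the dDAVP arrays. The myo-inositol transporter Slc5a3 (0.21 ± 0.22), the aldose reductase Akr1b1 (-0.08 ± 0.10) and the osmotic transcription factor Nfat5 (0.33 ± 0.18) differed by less than 2 standard errors.

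**Figure D2:**
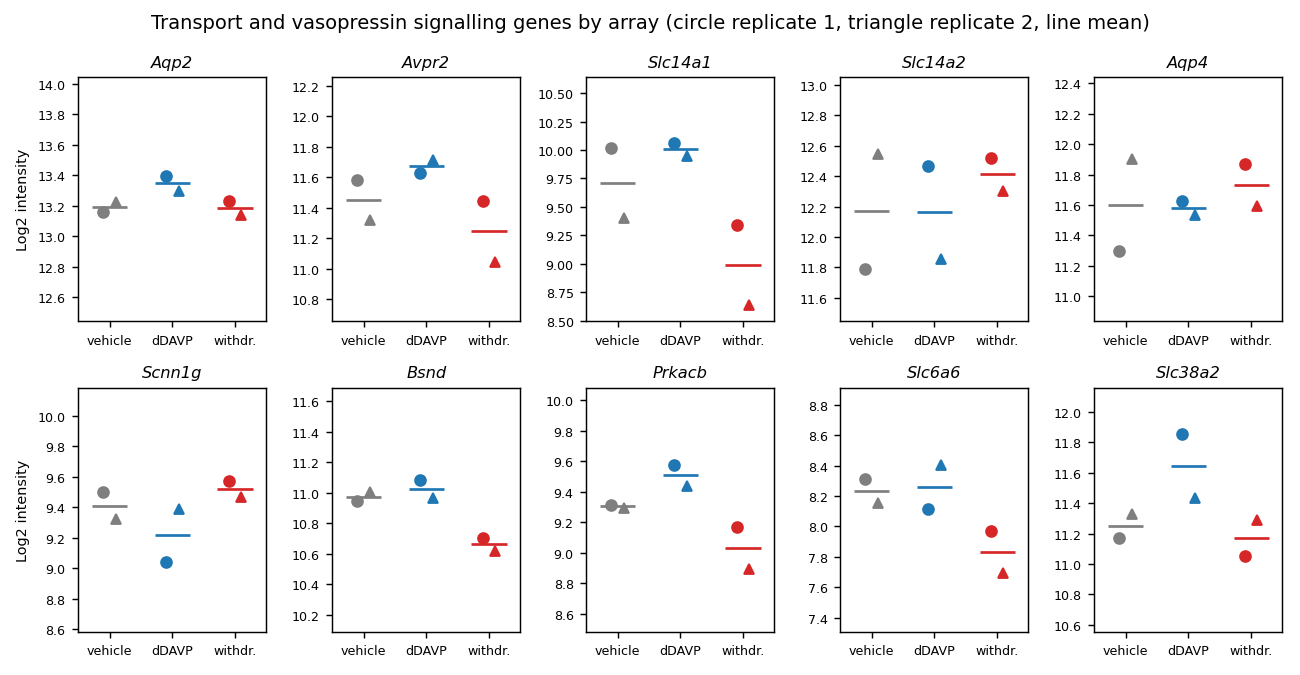
Log2 intensity (vertical axis, scaled to each gene) of 10 transport and vasopressin signalling genes in the vehicle, dDAVP and withdrawal arrays, with a circle for replicate 1, a triangle for replicate 2 and a line at the mean of 2. Slc14a1, Bsnd, Prkacb and Slc6a6 have both withdrawal arrays below the other 4, whereas in Slc14a2 the withdrawal arrays lie inside the range of the vehicle arrays.

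As deposited the lower genes were few (14 against 109 higher), but with array medians subtracted 77 were lower and 40 higher. The gene with the largest lower value among those at 1.5-fold with an unadjusted p under 0.05 was Wfdc10a, a member of the WAP four-disulfide core family. It was at 10.85 and 11.48 under dDAVP, 9.79 and 9.08 after withdrawal, and 10.10 and 11.07 in vehicle, a difference of -1.73 ± 0.39 (3.32-fold lower, unadjusted p = 0.00427 by limma, adjusted p = 0.260). Sdc4, the cell surface proteoglycan syndecan-4, was at 11.79 and 11.25 under dDAVP and 10.95 and 10.28 after withdrawal (-0.91 ± 0.26). Its vehicle arrays were at 10.80 and 10.98 and overlapped the withdrawal arrays. The other genes named for the smallest p among the lower ones were the lectin Clec2l (-0.63), the adaptor Crk (-0.66), the small GTPase Rhog (-0.63), Lrch4 (-0.63), the Wnt pathway transcription factor Tcf7l1 (-0.69), the neurotrophic factor Cntf (-0.68), the zinc finger gene Zfp317 (-0.61), Nrep (-0.74), the platelet-activating factor hydrolase Pla2g7 (-0.65), the B cell and macrophage receptor Cd180 (-0.65) and the hormone subunit Gpha2 (-0.81). For Tcf7l1 the 2 other probe sets gave 0.13 and -0.22, so its probe sets disagreed. Of the 14 lower genes 5 remained at 1.5-fold without withdrawal replicate 2, which was further from the dDAVP mean than replicate 1 in 12 of them.

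Among the 15 higher genes named for a small p, a chemokine and tissue factor had the largest differences. Ccl12, a chemokine for monocytes, was at 7.995 and 7.93 under dDAVP, 8.86 and 9.19 after withdrawal, and 8.37 and 8.77 in vehicle, a difference of 1.06 ± 0.17 (2.09-fold, unadjusted p = 0.000691 by limma, adjusted p = 0.260). F3, tissue factor, the starter of the clotting cascade, was at 8.23 and 8.31 against 8.98 and 9.46, a difference of 0.95 ± 0.19, with the vehicle arrays between the groups at 8.47 and 8.84. In both genes each withdrawal array was above all 4 other arrays. Pdpn, podoplanin, a mucin-like membrane protein, had the smallest p of all genes named here, at 6.91 and 6.78 under dDAVP, 7.59 and 7.51 after withdrawal and 7.31 and 7.27 in vehicle (0.71 ± 0.09, unadjusted p = 0.000256 by limma, adjusted p = 0.260). Its difference was 0.51 after loess, below 1.5-fold.

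The other 12 of the 15 higher genes named for their small p belonged to several classes. Gins1 and Mcm6 (DNA replication) and Oasl and Slfn9 (antiviral genes) are described with their groups. Ezh2, the histone methyltransferase of Polycomb, differed by 0.63 ± 0.10, Snx10, an endosomal sorting nexin, by 0.64 ± 0.11, and Enc1, a kelch protein, by 0.66 ± 0.14. Tm4sf20, a tetraspan membrane protein, was at 7.32 and 7.51 under dDAVP, 8.30 and 8.08 after withdrawal and 7.68 and 7.70 in vehicle (0.78 ± 0.12). The matrix genes Mmp12 (0.69 ± 0.12), a macrophage elastase, and Postn (0.73 ± 0.14), periostin, and the surface gene Msln (0.60 ± 0.13), mesothelin, were higher too, as was Prg2, an eosinophil granule protein (0.63 ± 0.13). After loess these 4 differed by 0.48, 0.52, 0.52 and 0.42. Of the 30 genes named for the smallest p, 24 were at 1.5-fold after loess, 18 when dDAVP replicate 2 was left out and 20 without replicate 2 of withdrawal. Under the alternatives tried 0 changed direction. With arrays left out direction could not change, because these genes were chosen for having no overlap between the groups.

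**Figure D3:**
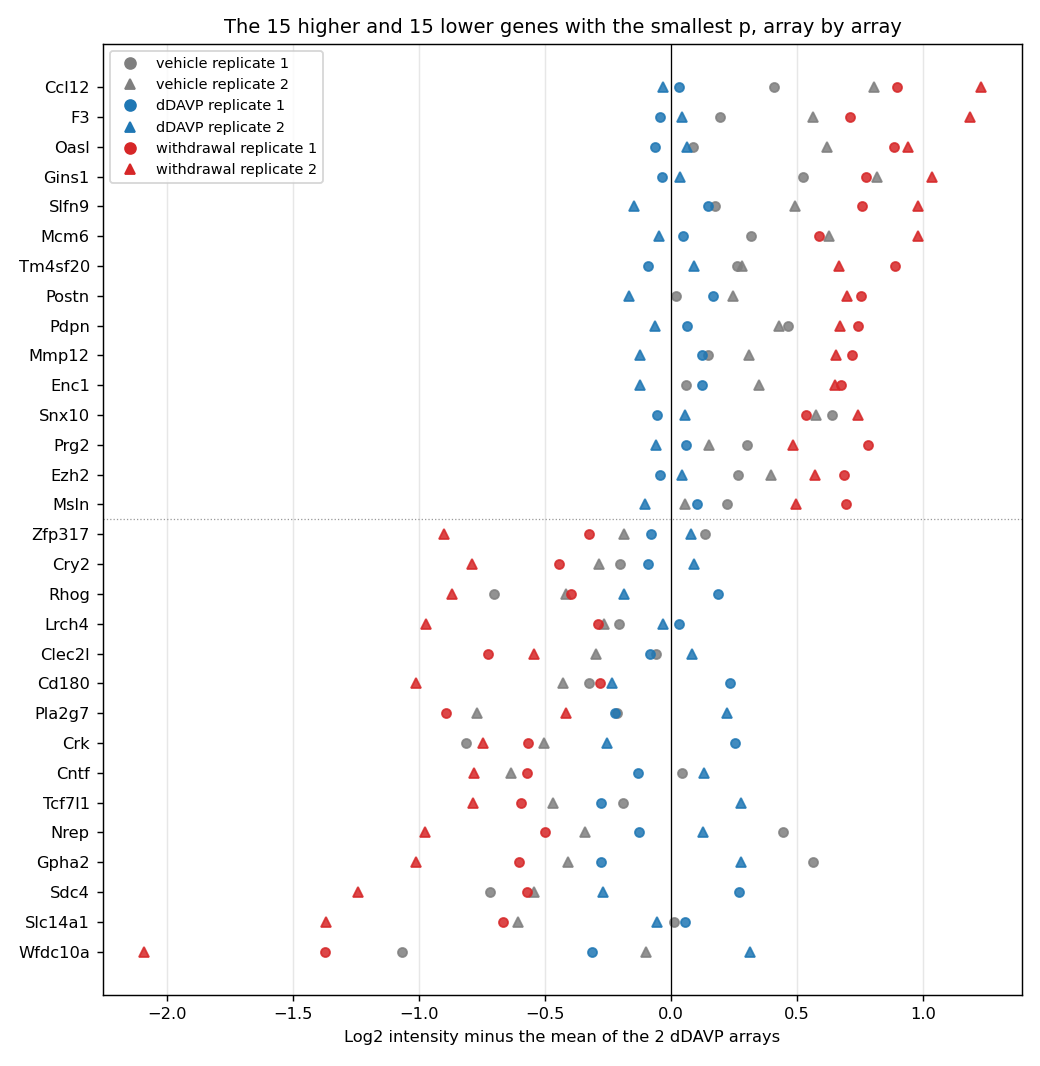
Log2 intensity minus the mean of the 2 dDAVP arrays (horizontal axis) for 30 genes at 1.5-fold without overlap between the groups, the 15 of smallest unadjusted p in each direction. Each point is 1 array, and the withdrawal arrays (red) lie apart from the dDAVP arrays (blue) by construction, whereas the vehicle arrays (grey) fall between or beside them, as for Ccl12 between 7.995 and 8.86.

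Interferon response genes were higher together. Type I interferon acts through a cell surface receptor, and many antiviral genes that it switches on carry an interferon-stimulated response element near their start. Of 39 measured members 38 were above 0, with a median of 0.43, and 37 after loess, with a median of 0.38, against 0.14 and 0.003 for all genes. In 30 members both withdrawal arrays lay above both dDAVP arrays (29 after loess), against 49.6% of all genes (20.3% after loess), and in 0 below. An unadjusted p under 0.05 was reached by 23, all higher (18 after loess), against 17.3% of all genes (3.19% after loess). Of the members 9 were also at 1.5-fold (7 after loess), where 0.769% of all genes were (0.282% after loess). In 7 of the 39 both withdrawal arrays were also above both vehicle arrays (17.9%), against 17.6% of all genes. 0 members passed over all genes.

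Members with several roles shared this pattern. Oasl, a 2'-5'-oligoadenylate synthetase relative, was at 8.65 and 8.77 under dDAVP, 9.60 and 9.65 after withdrawal and 8.80 and 9.33 in vehicle (0.91 ± 0.18). Ifih1, a cytosolic sensor of viral RNA, was at 8.94 and 9.08 against 9.43 and 9.88 (0.64 ± 0.16), and Rtp4, an interferon-induced chaperone, at 10.39 and 10.51 against 10.83 and 11.25 (0.60 ± 0.15). In all 3 the groups did not overlap, and in Ifih1 and Rtp4 the vehicle arrays overlapped the withdrawal arrays, at 9.58 and 9.60 and at 10.94 and 10.86. Usp18, the protease that removes Isg15 from proteins and dampens the interferon receptor, differed by 0.60 ± 0.14, and Slfn9, of the Schlafen family and no member of the list, by 0.87 ± 0.16. Picked with their values in view, the chemokine Cxcl10 was at 10.92 and 10.69 under dDAVP and 11.27 and 12.004 after withdrawal, and Ifit3, which binds viral RNA complexes, at 10.31 and 10.21 against 10.78 and 11.89.

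Withdrawal replicate 2 was above replicate 1 in 37 of the 39 members (94.9%), against 52.9% of all genes. Without replicate 2 the median of the list was 0.28 and 1 member was at 1.5-fold with an unadjusted p under 0.05, and without replicate 1 the median was 0.57 with 18 such members. Without dDAVP replicate 2 the median was 0.50, with 39 of 39 above 0. Ifit3 differed by 0.52 without withdrawal replicate 2 and by 1.63 without replicate 1. Markers of some immune cells had higher summed intensities beside the list. The 21 measured T, B and NK cell markers summed to intensities of 3780.4 to 3853.3 under dDAVP, 3900.5 to 4945.1 after withdrawal and 4188.6 to 5855.2 in vehicle, with a median difference of -0.02 after loess. The 18 markers of macrophages and dendritic cells summed to 9538.7 to 12453.1 under dDAVP and 11438.7 to 11805.0 after withdrawal. Their part in the interferon result was not tested.

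The response element was looked for in RefSeq promoters of assembly GRCr8, 250 bases before the start of each gene, on both strands. The letters GAAANNGAAA (TTTCNNTTTC on the other strand) were found in 16 of the 29 interferon list genes with a promoter window (55.2%), in 3.61% of 27457 genes with a window and in 3.27% of 11697 measured ones. They were found in 1 of 27 DNA replication genes and in 0 of the 24 genes with a window among the 30 named for the smallest p. A match is a description of letters and not of binding. The stretches around the match are shown for Ifih1 and, picked with their values in view, for Ifit3, Cxcl10, Irf7 and Rsad2, each 5′ to 3′ on the strand of its gene with the match in capitals. They lie at chr3:67683983-67684062 (minus strand), chr1:241527247-241527325 (plus), chr14:15988816-15988867 (plus), chr1:205800048-205800127 (minus) and chr6:48788223-48788302 (minus), in this order.
Ifih1: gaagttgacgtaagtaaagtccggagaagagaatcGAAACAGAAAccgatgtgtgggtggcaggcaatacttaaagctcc
Ifit3: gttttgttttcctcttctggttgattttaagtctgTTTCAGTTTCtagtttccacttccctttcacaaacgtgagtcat
Cxcl10: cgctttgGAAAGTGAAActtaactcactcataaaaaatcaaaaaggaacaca
Irf7: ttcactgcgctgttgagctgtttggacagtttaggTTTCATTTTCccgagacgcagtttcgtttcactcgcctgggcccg
Rsad2: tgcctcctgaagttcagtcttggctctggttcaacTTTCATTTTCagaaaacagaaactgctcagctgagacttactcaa
The matches end between 35 and 234 bases before the start, nearest in Ifit3 and farthest in Cxcl10. Irf7, the interferon-induced transcription factor, was at 10.67 and 10.83 under dDAVP and 11.13 and 11.45 after withdrawal. Rsad2, the antiviral enzyme viperin, was at 9.50 and 9.51 against 9.81 and 10.32. In all 5 genes both withdrawal arrays lay above both dDAVP arrays.

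Genes of DNA replication were higher as well. All 34 measured members were above 0, with a median of 0.38 (33 of 34 and 0.24 after loess). In 29 both withdrawal arrays lay above both dDAVP arrays (24 after loess), against 49.6% of all genes (20.3% after loess). An unadjusted p under 0.05 in the higher direction was reached by 20, against 17.3% of all genes, and 7 were also at 1.5-fold (3 after loess), against 0.769% (0.282% after loess). Gins1, a subunit of the replicative helicase, was at 7.28 and 7.35 under dDAVP, 8.08 and 8.35 after withdrawal and 7.83 and 8.13 in vehicle (0.90 ± 0.14). Mcm6, a subunit of the same helicase, was at 8.32 and 8.22 against 8.86 and 9.25 (0.78 ± 0.17). The licensing factors Cdc6 (0.75 ± 0.18) and Cdt1 (0.66 ± 0.14) were also higher. Withdrawal and vehicle arrays overlapped in Gins1 and Mcm6. Pclaf, a PCNA-associated factor and no member of the list, was picked with its values in view. It was at 7.90 and 7.09 under dDAVP, 8.80 and 9.18 after withdrawal and 7.49 and 8.496 in vehicle (1.495 ± 0.39). The median of the list after loess was 0.20 when dDAVP replicate 2 was left out and also 0.20 without replicate 2 of withdrawal.

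Genes of mitosis had the largest median of the 27 lists of function, and it rested on dDAVP replicate 2. All 31 measured members were above 0, with a median of 0.78 (30 and 0.57 after loess), and 26 had both withdrawal arrays above both dDAVP arrays (22 after loess), against 49.6% of all genes (20.3% after loess). An unadjusted p under 0.05 was reached by 10, against 17.3% of all genes higher, and after loess by 2, against 3.19%. At 1.5-fold with it were 4 (0 after loess), against 0.769% of all genes. The mean log2 level of the list was 7.87 in dDAVP replicate 1 and 7.06 in replicate 2, 8.39 and 8.15 in the withdrawal arrays, and 7.25 and 8.22 in the vehicle arrays. dDAVP replicate 2 and vehicle replicate 1, the 2 arrays that stood apart, were the lowest. Without dDAVP replicate 2 the median was 0.35 (0.18 after loess), with 31 of 31 above 0 as deposited and 29 after loess. The 4 members at 1.5-fold were the kinases Aurkb (0.74 ± 0.20) and Ttk (0.85 ± 0.23) and the motor proteins Kif23 (0.88 ± 0.27) and Kif4a (0.79 ± 0.26). Aurkb was at 7.38 and 6.90 under dDAVP and 7.92 and 7.85 after withdrawal, and its difference without dDAVP replicate 2 was 0.51. Withdrawal replicate 2 was above replicate 1 in 6 of the 31 mitosis genes (19.4%), whereas in DNA replication it was in 25 of 34 (73.5%).

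Cdkn1a, which encodes the cell cycle inhibitor p21, had the largest difference among the higher genes at 1.5-fold with an unadjusted p under 0.05. It was at 7.68 and 7.85 under dDAVP, 8.81 and 10.08 after withdrawal, and 8.08 and 9.32 in vehicle. The difference was 1.68 ± 0.51, or 3.20-fold (limma, unadjusted p = 0.0163, adjusted p = 0.260), and it was 1.05 without withdrawal replicate 2 and 2.31 without replicate 1. The groups did not overlap, but vehicle replicate 2 lay above withdrawal replicate 1. Of 21 measured p53 targets, which include Cdkn1a, 16 were above 0, against 74.9% of all genes, with a median of 0.22 (0.15 after loess). Without dDAVP replicate 2 the median of these targets was 0.11 (0.04 after loess), with 14 above 0 (11 after loess). Gadd45a, a stress-induced growth arrest gene picked with its values in view, was at 11.25 and 10.90 under dDAVP and 11.62 and 11.70 after withdrawal (0.58 ± 0.14). Its vehicle arrays were at 11.33 and 11.48, below both withdrawal arrays.

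Cytokine and acute inflammation genes were mostly higher as deposited and less so after loess. Of 41 members 37 were above 0, against 74.9% of all genes, with a median of 0.26. After loess 31 were above 0, against 50.9% of all genes, with a median of 0.08. The 1 member at 1.5-fold with an unadjusted p under 0.05 was Csf3, the granulocyte growth factor, at 7.37 and 7.03 under dDAVP, 8.03 and 8.07 after withdrawal and 6.94 and 7.58 in vehicle (0.85 ± 0.22). Both withdrawal arrays of Csf3 were above the other 4. Il6, the fever and acute phase cytokine, was at 6.68 and 6.46 under dDAVP, 6.99 and 9.37 after withdrawal, and 6.60 and 6.93 in vehicle. Its difference of 1.60 ± 0.69 (limma, unadjusted p = 0.0574) was 0.42 without withdrawal replicate 2. Il11, a related cytokine, was at 9.03 in withdrawal replicate 2 and between 7.15 and 7.44 in the other 5 arrays. Lcn2, a marker of tubular injury and of neutrophils, was at 10.95 in withdrawal replicate 2, at 10.04 and 8.34 under dDAVP, at 9.77 in withdrawal replicate 1 and at 8.81 and 9.76 in vehicle. Ccl20, a lymphocyte chemokine, was at 7.61 and 7.66 under dDAVP and 8.86 and 8.23 after withdrawal, with vehicle replicate 2 at 8.84.

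The 17 measured neutrophil markers, Lcn2 among them, summed to intensities of 1874.4 to 2650.2 under dDAVP, 2736.4 to 3903.5 after withdrawal and 2280.0 to 2528.6 in vehicle. All 17 were above 0, with a median of 0.22 that was 0.00 after loess. S100a9, a calcium-binding protein of neutrophil granules, was at 7.20 and 6.84 under dDAVP and 7.42 and 7.82 after withdrawal (0.60 ± 0.18, and 0.40 after loess). The part of these cells in the cytokine differences was not tested.

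The promoter of Il6 held the cAMP response element TGACGTCA, the letters bound by CREB family factors downstream of protein kinase A. The letters occur in 1.78% of all genes with a window, in 2 of the 38 measured cAMP pathway genes with one (5.26%) and in 5 of 28 immediate early genes (17.9%). The stretch is at chr4:5894695-5894772 (minus strand), with the match 155 to 162 bases before the start in capitals.
Il6: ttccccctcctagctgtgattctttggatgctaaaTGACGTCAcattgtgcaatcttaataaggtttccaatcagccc
The level of Il6 above those of the dDAVP arrays came mostly from 1 array, as given above.

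Immediate early genes, which respond within minutes to hours to many stimuli, were above 0 as deposited in 31 of 39 members, with a median of 0.25 (30 and 0.12 after loess). Of all genes 74.9% were above 0 (50.9% after loess). In the list 0 were at 1.5-fold with an unadjusted p under 0.05. The median was 0.05 without dDAVP replicate 2 (-0.05 after loess), with 23 of 39 above 0. Myc was at 8.37 and 7.44 under dDAVP and 8.46 and 9.02 after withdrawal (0.83 ± 0.41), and Rgs2, a regulator of G protein signalling, at 10.55 and 9.87 against 10.86 and 10.88 (0.66 ± 0.36). Fos was at 8.71 and 7.86 against 8.12 and 9.17, Egr1 at 9.74 and 8.49 against 9.09 and 8.997, and Atf3 at 9.06 and 8.01 against 9.11 and 9.06. In Fos and Egr1 the groups overlapped, and in all 5 genes dDAVP replicate 1 was above replicate 2. Without dDAVP replicate 2 the difference was 0.37 in Myc, 0.32 in Rgs2, 0.03 in Atf3, -0.06 in Fos and -0.70 in Egr1.

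Clock genes included members on both sides. These genes form a daily feedback loop in which BMAL1 and CLOCK drive the Per and Cry repressors and the REV-ERB, DEC and D-box factors. Of 18 measured members 11 were above 0, against 74.9% of all genes, with a median of 0.07. After loess 7 were above 0, against 50.9% of all genes, with a median of -0.08. At 1.5-fold with an unadjusted p under 0.05, 2 were higher (0 after loess), against 0.769% of all genes (0.282% after loess). In the lower direction 1 was (1 after loess), against 0.0988% of all genes (0.169% after loess). Cry2, a repressor, was at 8.83 and 9.01 under dDAVP, 8.47 and 8.13 after withdrawal, and 8.72 and 8.63 in vehicle (-0.62 ± 0.14, unadjusted p = 0.00437 by limma, adjusted p = 0.260). Both withdrawal arrays were the lowest of the 6, and without withdrawal replicate 2 the difference was -0.44. Bhlhe40, the repressor DEC1, was at 8.38 and 8.48 against 9.41 and 8.81 (0.68 ± 0.25), with vehicle at 8.62 and 9.20. Nfil3, a D-box repressor, was at 7.84 and 7.41 against 8.24 and 8.23 (0.61 ± 0.21), with both vehicle arrays lower than the withdrawal arrays, at 7.57 and 8.08.

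Other members of the loop, picked with their values in view, filled in the picture. The REV-ERB gene Nr1d2 was at 9.49 and 9.63 under dDAVP and 9.04 and 9.24 after withdrawal (-0.42 ± 0.14), and Nr1d1 at 10.10 and 10.53 against 9.98 and 9.72 (-0.46 ± 0.22). The D-box activator Dbp was at 10.62 and 11.41 against 10.64 and 10.52, so its groups overlapped. Per1 differed by 0.13 ± 0.13 and Per2 by 0.15 ± 0.11, and both were below 0 after loess, at -0.07 and -0.02. Usp2, a deubiquitinase with a daily rhythm, was at 8.09 and 7.46 under dDAVP and 8.40 and 8.61 after withdrawal (0.73 ± 0.35). The E-box CACGTG, the letters bound by BMAL1 and CLOCK, was found in 4 of the 16 clock genes with a promoter window (25%) and in 6.18% of all genes with one. Immediate early genes held it in 6 of 28 (21.4%), so it was not particular to the clock list. The stretch of Bhlhe40 is shown because this gene had the largest difference among the clock genes at 1.5-fold with an unadjusted p under 0.05. It lies at chr4:143174200-143174270 on the plus strand, 215 to 220 bases before the start.
Bhlhe40: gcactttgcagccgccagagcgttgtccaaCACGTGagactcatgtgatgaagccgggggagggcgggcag

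Genes of cholesterol synthesis were above 0 in 16 of 21 members, against 74.9% of all genes, with a median of 0.20. After loess 16 were above 0, against 50.9% of all genes, with a median of 0.14. Sqle, squalene epoxidase, was at 10.62 and 10.35 under dDAVP, 11.25 and 11.28 after withdrawal and 10.51 and 11.36 in vehicle (0.78 ± 0.27). Insig1, which holds the sterol sensor in the endoplasmic reticulum, was at 10.54 and 10.17 against 11.07 and 11.00 (0.68 ± 0.27), and its other probe set differed by 0.57. Idi1, an isopentenyl diphosphate isomerase, was at 10.20 and 9.46 against 10.55 and 10.63 (0.76 ± 0.35). In Sqle and Insig1 vehicle replicate 2 was above both withdrawal arrays. Without dDAVP replicate 2 the median of the list was 0.07 (-0.07 after loess), with 12 of 21 above 0, while Sqle differed by 0.64, Insig1 by 0.49 and Idi1 by 0.39.

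**Figure D4:**
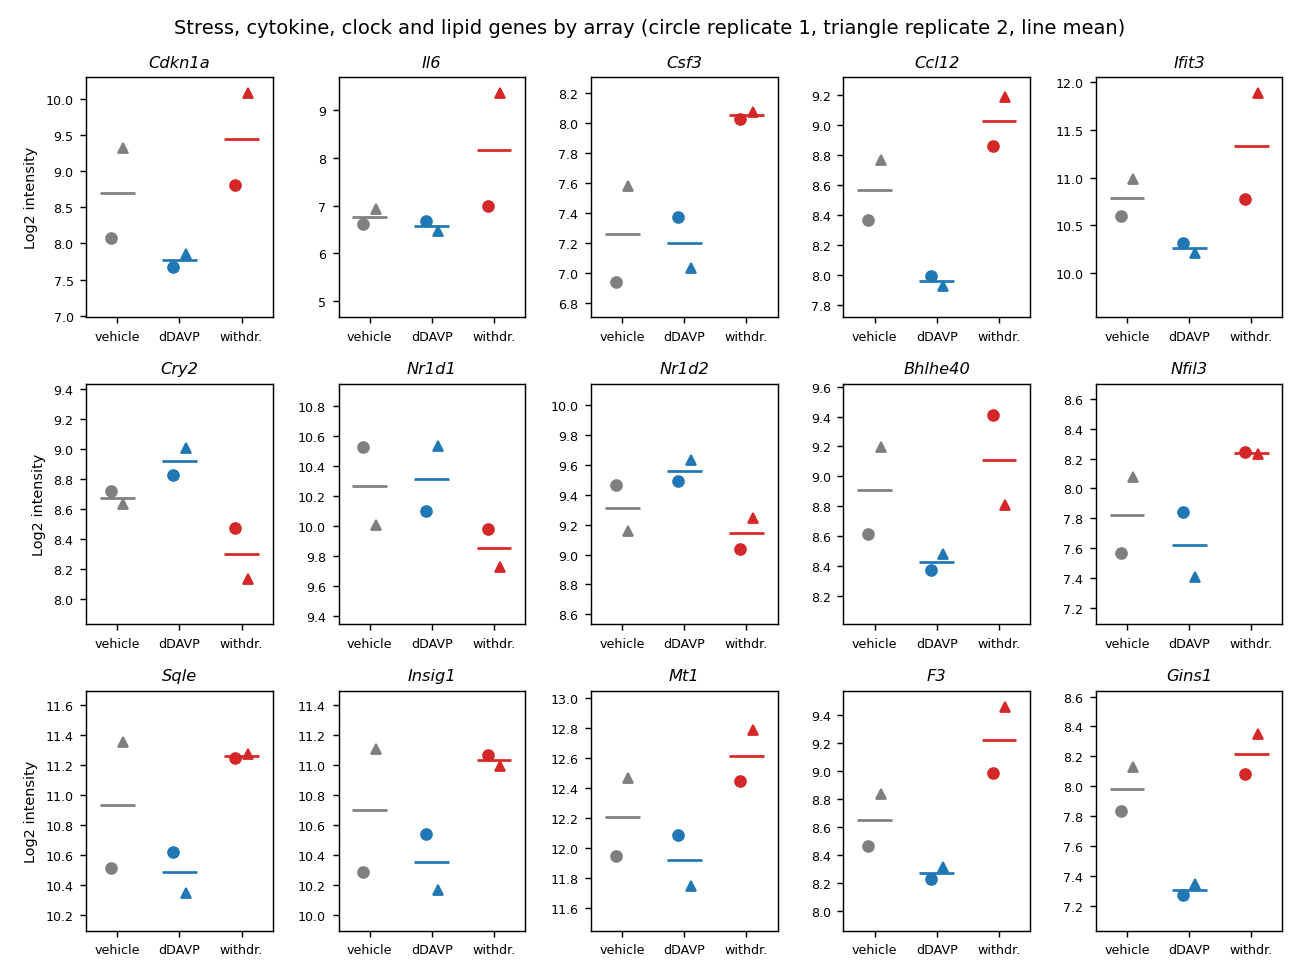
Log2 intensity (vertical axis, scaled to each gene) of 15 stress, cytokine, clock, lipid and replication genes in the vehicle, dDAVP and withdrawal arrays, with a circle for replicate 1, a triangle for replicate 2 and a line at the mean of 2. Il6 and Ifit3 were highest in withdrawal replicate 2, at 9.37 and 11.89, whereas the withdrawal arrays of Csf3, Nfil3, Sqle and Insig1 lay close together.

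Genes answering to glucocorticoids, a class raised by stress hormones, lay above 0 in 21 of 32 members, against 74.9% of all genes. Their median was 0.12 (0.01 after loess), against 0.14 for all genes (0.003 after loess). Mt1, a metallothionein, was at 12.09 and 11.75 under dDAVP and 12.45 and 12.78 after withdrawal (0.70 ± 0.22), and its other probe set differed by 0.65. Vehicle replicate 2 of Mt1, at 12.47, lay between the withdrawal arrays. Fkbp5, a co-chaperone of the receptor, was at 8.23 and 8.17 against 8.56 and 8.51 (0.34 ± 0.20), and Tsc22d3, the leucine zipper GILZ, at 11.03 and 10.21 against 10.50 and 10.60 (-0.07 ± 0.25).

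Other stress classes lay near the background in their medians. Chaperone genes had a median of 0.07 with 31 of 46 above 0, against 74.9% of all genes. Without dDAVP replicate 2 the median was -0.05 with 21 above 0. The 1 at 1.5-fold was Dnaja3, a mitochondrial DnaJ protein. It was at 8.60 and 8.66 under dDAVP, 9.30 and 9.85 after withdrawal and 9.36 and 9.85 in vehicle (0.94 ± 0.23). The dDAVP arrays of Dnaja3 were below the other 4. Genes of the unfolded protein response had a median of 0.08, which was 0.01 without dDAVP replicate 2. Ddit3, the stress factor CHOP, was at 10.41 and 9.92 against 10.68 and 10.97 (0.66 ± 0.27, and 0.41 without that array). Genes of xenobiotic metabolism and NRF2 targets had a median of 0.14, equal to that of all genes, and Gstm1, a glutathione transferase, was at 10.39 and 10.53 against 11.34 and 10.97 (0.70 ± 0.17). Heme oxygenase Hmox1 was at 8.14 and 8.13 against 8.86 and 8.89, with vehicle at 7.79 and 9.16, so the vehicle arrays spanned both groups. Glycolysis and hypoxia genes had a median of 0.03 and those of prostaglandin synthesis and receptors 0.03, where the thromboxane receptor Tbxa2r differed by 0.36 ± 0.10 (0.17 after loess).

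Matrix genes had a median of 0.20 with 28 of 40 above 0 (0.06 and 25 after loess). Of all genes 74.9% were above 0 (50.9% after loess). At 1.5-fold with an unadjusted p under 0.05, 3 matrix genes were higher (1 after loess), against 0.769% of all genes (0.282% after loess). They were Mmp12 and Postn, given above, and Adamts1, a secreted protease, at 8.19 and 7.85 under dDAVP, 8.55 and 9.03 after withdrawal and 7.98 and 8.28 in vehicle (0.77 ± 0.20). Both withdrawal arrays of Adamts1 were above the other 4. Timp1, an inhibitor of metalloproteinases, was at 11.19 and 10.49 against 11.25 and 11.64 (0.60 ± 0.27, and 0.26 without dDAVP replicate 2). The 15 measured fibroblast markers summed to 13246.8 to 13463.4 under dDAVP and 12663.5 to 13239.2 after withdrawal, although 9 of them were above 0 with a median of 0.06, and their brightest member, Dcn (decorin), differed by 0.00 ± 0.23 (-0.01 after loess). The part of these cells in the matrix differences was not tested. Epithelial genes of the papillary surface and urothelium summed to 7694.1 to 9098.7 under dDAVP and 9159.2 to 9921.2 after withdrawal. Of these 11 genes 10 were above 0, against 74.9% of all genes. The largest difference in this list was 0.63, and its median was 0.26 (0.15 after loess). Krt15, a basal keratin, and Fgfbp1, a carrier of fibroblast growth factors, are no members of it and were picked with their values in view. Krt15 was at 7.82 and 7.58 against 8.92 and 8.59 (1.06 ± 0.27). Fgfbp1 was at 9.34 and 9.50 against 10.58 and 10.40 (1.07 ± 0.36). Vehicle replicate 2 was at 8.69 and 10.63 in these genes, above withdrawal replicate 2.

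Genes of protein degradation, translation and energy had small medians. Of 99 measured E3 ubiquitin ligases 47 were above 0, against 74.9% of all genes, with a median of -0.01 (-0.07 after loess), and 0 were at 1.5-fold with an unadjusted p under 0.05. After loess 31 of the 99 had both withdrawal arrays below both dDAVP arrays, against 19.1% of all genes, and 6 were lower at an unadjusted p under 0.05, against 3.32%. Rnf167, a membrane-bound ligase, had the smallest p of them, at 10.90 and 10.96 under dDAVP, 10.51 and 10.35 after withdrawal and 10.52 and 10.60 in vehicle (-0.50 ± 0.10). Both dDAVP arrays of Rnf167 were the highest of the 6. Of 52 deubiquitinases 24 were above 0 with a median of -0.01, and after loess 7 were lower at an unadjusted p under 0.05, against 3.32% of all genes. Josd1, a member picked with its values in view, was at 10.05 and 10.04 under dDAVP, 9.49 and 9.68 after withdrawal and 9.61 and 9.51 in vehicle (-0.46 ± 0.10). Otub1 was at 7.88 and 9.27 under dDAVP and 9.32 and 9.05 after withdrawal, so its difference of 0.61 ± 0.43 came from 1 dDAVP array.

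Of 37 proteasome subunits 30 were above 0, against 74.9% of all genes, with a median of 0.13 (0.12 after loess). After loess 5 were higher at an unadjusted p under 0.05, against 3.19% of all genes, and in 18 both withdrawal arrays lay above both dDAVP arrays, against 20.3%. Pomp, the assembly chaperone, was at 11.05 and 11.14 under dDAVP and 11.36 and 11.86 after withdrawal (0.51 ± 0.17). Withdrawal replicate 2 was above replicate 1 in 34 of these 37 genes (91.9%), as it was in most interferon genes. Ribosomal proteins had a median of 0.10 with 48 of 66 above 0, against 74.9% of all genes. After loess 31 had both withdrawal arrays above both dDAVP arrays, against 20.3% of all genes. Rps24 was at 11.92 in withdrawal replicate 2 and between 10.48 and 10.69 in the other 5 arrays, and its other probe set differed by 0.70 in the same comparison. Nop58, a core protein of small nucleolar particles and no member of the ribosomal list, was picked with its values in view. It was at 10.02 and 10.10 under dDAVP and 10.55 and 11.08 after withdrawal (0.75 ± 0.19). Oxidative phosphorylation genes had a median of 0.03 with 33 of 59 above 0, and the ATP synthase subunit Atp5mc3 differed by -0.22 ± 0.09, its other probe set by -0.06. Lysosome and autophagy genes had a median of -0.01, and Gabarapl1, an autophagosome protein, was at 11.00 and 11.35 against 10.83 and 10.61 (-0.45 ± 0.15).

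**Figure D5:**
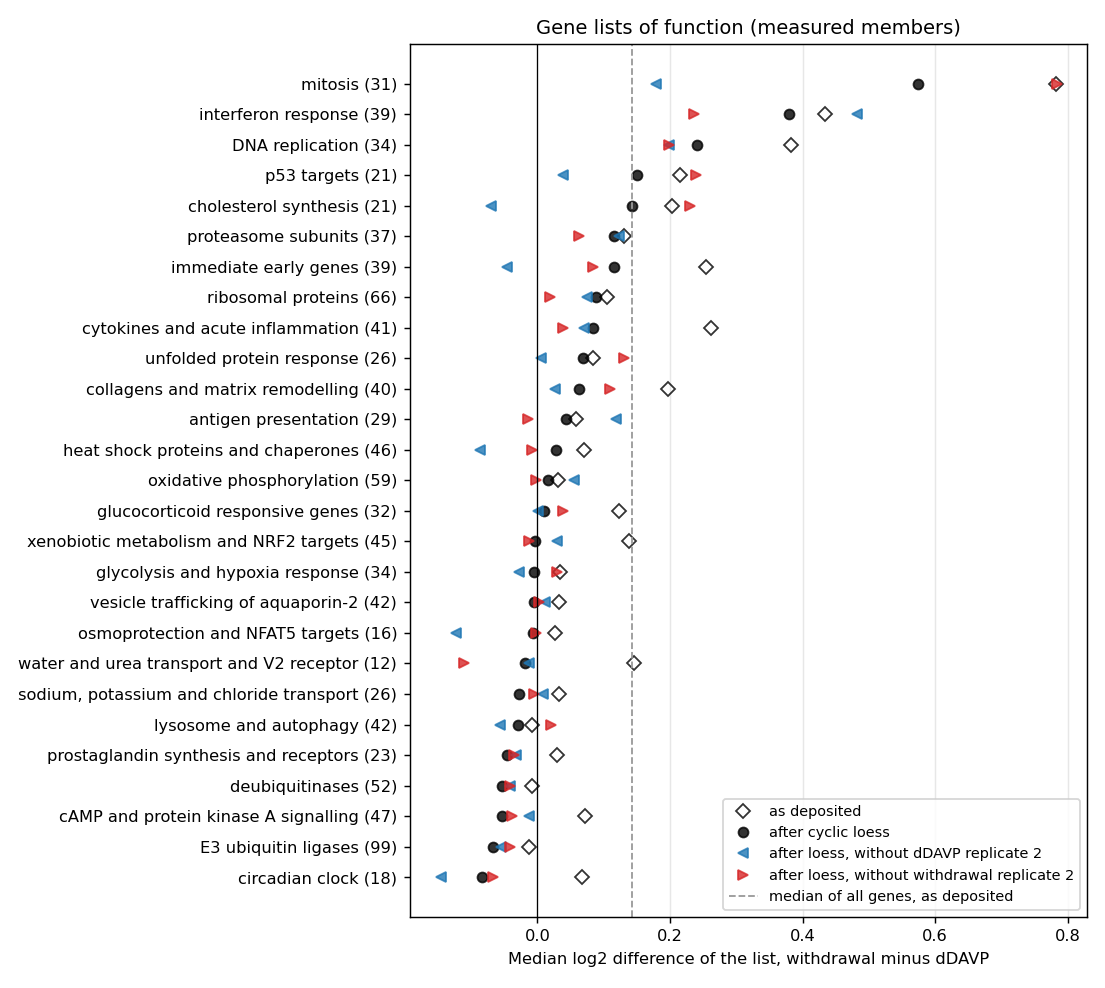
Median log2 difference of withdrawal against dDAVP (horizontal axis) in the measured members of 27 gene lists of function, with the number of members in brackets. Diamonds are values as deposited, circles after cyclic loess, and triangles after loess without dDAVP replicate 2 or withdrawal replicate 2. The dashed line is the median of all genes as deposited, 0.14, and the mitosis list goes from 0.57 after loess to 0.18 without dDAVP replicate 2, whereas the interferon list goes to 0.48.

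Antigen presentation genes, many of which interferon raises, had a median of 0.06 with 20 of 29 above 0 (0.04 and 18 after loess). Of all genes 74.9% were above 0 (50.9% after loess). Ciita, the class II transactivator, differed by 0.28 ± 0.10 as deposited and 0.07 after loess. Irf1, an interferon-induced transcription factor of this pathway picked with its values in view, was at 8.21 and 8.33 under dDAVP, 8.70 and 8.998 after withdrawal and 8.70 and 8.85 in vehicle (0.58 ± 0.13). Isg15, the ubiquitin-like modifier, chosen likewise, was at 11.12 and 11.18 against 11.61 and 12.36 (0.84 ± 0.24), with vehicle at 11.59 and 11.75. Irf1 and Isg15 are members of the interferon list and not of the antigen presentation list, in which the largest difference was 0.44. The dDAVP arrays were the lowest of the 6 in both genes.

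Markers of cells from outside the inner medulla and of other tubule segments were also followed. Proximal tubule markers summed to 2730.0 to 4294.9 under dDAVP and 2947.6 to 3024.6 after withdrawal, and Slc7a13, a proximal amino acid transporter and the brightest of them, was at 9.48 and 10.75 under dDAVP and 9.66 and 9.19 after withdrawal. Slc13a3, the member with the smallest p, differed by 0.30 ± 0.12, and by 0.10 after loess. Thick ascending limb markers summed to 9632.1 to 13072.3 under dDAVP and 9541.7 to 11608.6 after withdrawal. Intercalated cell markers summed to 9513.2 to 10769.1 and 8212.2 to 12212.6, and thin limb markers to 21895.9 to 25345.7 and 22484.7 to 22578.1. In thin limb markers Bst1, an ectoenzyme picked with its values in view, was at 10.17 and 10.53 under dDAVP and 9.99 and 9.58 after withdrawal (-0.57 ± 0.18). Adipocyte markers summed to 3281.6 to 4667.5 under dDAVP and 3615.2 to 4108.3 after withdrawal, and their hormone gene Adipoq differed by 0.37 ± 0.09, and by 0.16 after loess. Smooth muscle and pericyte markers summed to 6268.1 to 7322.1 and 7197.9 to 7653.7. Mast cell markers summed to 771.5 to 838.0 and 894.8 to 909.6, with 10 of 10 above 0 and a median of 0.15 that was -0.07 after loess. Distal convoluted tubule markers summed to 1889.1 to 1959.8 and 1831.4 to 1862.0, although 4 of 6 were above 0. Of the 16 marker lists, the summed ranges of the groups did not overlap for endothelium, erythroid cells, fibroblasts and distal convoluted tubule, where the sums were lower after withdrawal. Nor did they for the papillary surface, neutrophils, mast cells and T, B and NK cells, where they were higher. Among single genes as deposited, 49.6% had both withdrawal arrays above both dDAVP arrays and 8.06% below. The nearest fibroblast sums were 13246.8 under dDAVP and 13239.2 after withdrawal. In the lists with higher sums the median after loess was 0.15 for the papillary surface, 0.00 for neutrophils, -0.07 for mast cells and -0.02 for T, B and NK cells.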

How the data were processed

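Total RNA of 6 samples, 300 ng each, was hybridised to Affymetrix whole-transcript rat gene arrays. Per the submitters' processing notes the authors used RMA to summarise probes, and they deposited 1 intensity per probe set and array on a linear scale, from 30.2 to 10778.7. RMA usually gives log2 values, and the design had assumed them, so log2 was taken first. The genome build is not given in the sources used here. RMA equalises arrays, so a change common to most genes would be reduced. Without detection calls or scan dates, which were not used here, no batch could be examined.

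Of 28524 probe sets, 14947 carried 1 gene symbol, 318 several, and 13259 were not in the annotation table used. Entrez numbers of 14916 were found in RefSeq's table of assembly GRCr8, and 0 symbols changed. The probe set with the highest mean stood for a gene, which gave 14168 genes, 509 of them with several probe sets.

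limma 3.58.1 in R 4.3.3 fitted 1 mean per group to all 6 arrays (lmFit, eBayes, 3 residual and 3.21 prior degrees of freedom). Tests were two-sided with Benjamini-Hochberg adjustment over all genes. Errors beside differences are moderated standard errors. The fit was tested on simulated data. The number of arrays limits the precision. Members and lists (27 of function, 16 of markers) were chosen with earlier results of these data known, and no set test was run.

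Genes were named by rule. Its parts were among genes at 1.5-fold without overlap the 15 of smallest p in each direction, a set of 23 transport, signalling and stress genes, up to 4 members of each list of function at 1.5-fold (or the 1 with the smallest p), and for marker lists the brightest member and that with the smallest p. Others are said to be picked with their values in view. Replicate numbers are shared between groups, but nothing in the labels pairs animals, and the same-number deviations from the group means correlated at -0.111 between dDAVP and withdrawal and -0.623 between vehicle and dDAVP, so the numbers were not taken as pairs. Promoter windows were RefSeq's, assembly GRCr8, for 27457 genes, and 90 of the 118 named genes had one. Alternatives were cyclic loess, array medians, quantile normalization, dropping the dimmest 25% of genes, the mean of a gene's probe sets, an offset of 32, the 4 arrays alone, an intensity trend, a replicate block, and leaving out arrays.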

Additional observations from a re-analysis of the deposited data

How the results depend on the processing

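With 2 arrays a group, precision is the main limit, and how far a dim gene lay above background is unknown. No gene passed in the comparison as deposited, nor under 20 of 22 alternatives. Without dDAVP replicate 1, 2 genes passed, and after loess without that array 1 did. They were Fam111a (4.12, limma adjusted p = 0.0148), at 6.77 in dDAVP replicate 2 and at 10.50 or more elsewhere, and Ypel4 (-5.00, adjusted p = 0.000405, and -5.10 and 0.0117 after loess), at 11.89 in dDAVP replicate 2 and at most 7.06 elsewhere. With leave-one-out fits 0 to 2 genes passed. The count at an unadjusted p under 0.05, 2686, was 922 after loess, 1266 with array medians subtracted, 890 after quantile normalization and 1191 without the dimmest genes. With 1 array left out it ran from 773 to 2919, and after loess with 1 array left out it was 1176 and 864 (dDAVP replicates 1 and 2), 1207 and 383 (withdrawal replicates 1 and 2). The count at 1.5-fold, 123, was 64 after loess, 58 after quantile normalization, 68 with the offset and 204 without both arrays that stood apart. With 1 array left out it ran from 115 to 506, and after loess it was 348 and 142 without dDAVP replicates 1 and 2, and 273 and 51 without withdrawal replicates 1 and 2. The fewer arrays aside, the cause of these moves was not tested.

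With the replicate number as a block, which does not pair animals here, 0 genes passed, 1518 had an unadjusted p under 0.05 and 112 were at 1.5-fold (659 and 57 after loess). Crossing the numbers gave 0, 2262 and 183. The fits after loess with the block or with an array left out and the crossed pairs were chosen after seeing the data.

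Direction was compared in 123 genes drawn from those named in the text, a set other than the 123 genes at 1.5-fold. Of the genes so compared, 13 turned direction under some alternative. With 1 array left out, the difference ran from -0.06 to 0.55 in Slc14a2, from -0.44 to 0.70 in Crem (-0.16 without withdrawal replicate 2), from -0.19 to 0.17 in Nedd4l, from -0.17 to 0.89 in Fos, from -0.80 to 4.64 in Mest, from -0.29 to 0.16 in Sgk1, from -0.48 to 0.34 in Tsc22d3, from -0.08 to 1.31 in Otub1, from -0.70 to 0.56 in Egr1 from -0.08 to 0.33 in Scnn1a and from -0.28 to 0.29 in Dcn (-0.01 without dDAVP replicate 1). Without both arrays that stood apart it was -0.06 in Slc14a2, -0.44 in Crem, 0.17 in Nedd4l, -0.06 in Fos and -0.80 in Mest. After loess and quantile normalization it was -0.07 and -0.08 in Per1, -0.02 and -0.01 in Per2, -0.08 and -0.10 in Scnn1a, and -0.01 and -0.03 in Dcn, where it was -0.12 with array medians subtracted.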
